A study of Mus musculus with 39 samples.

Results

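Of the 24421 genes in the tables of neocortical nuclear RNA, 9 genes that encode synaptic adhesion proteins were followed here. They were the neurexins Nrxn2 and Nrxn3, the neuroligins Nlgn1, Nlgn2 and Nlgn3, and 4 genes for partner or related proteins, Cntnap2, Ptprd, Ptprs and Lrrtm2. All 9 were listed by name, with earlier results of these data known, and all 9 passed the filter on low values in every batch. Each was measured by nuclear RNA-seq in 3 batches and by the open chromatin peaks of 6 ATAC-seq lists over its body and start sites.

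The nuclei came from mice of both sexes and 13 to 16 weeks of age with the genotype TG/WT for Arc-creERT2 and, at the R26 locus, M/WT or M/M for the CAG-Sun1-sfGFP-Myc allele. In these mice tamoxifen lets a recombinase made from the promoter of Arc, a gene that neurons switch on when active, start a nuclear membrane tag (Sun1-sfGFP) in the same cells, and all animals received tamoxifen 5 h before a social interaction test. Both groups therefore shared genotype, treatment and tissue, and differed in how the sfGFP+ nuclei were isolated. In FANS they were sorted by flow cytometry on sfGFP and DAPI, and in INTACT they were captured with an anti-GFP antibody on magnetic beads. The RNA analysed here came from 4 FANS and 4 INTACT libraries in batch 1, from 7 and 4 in batch 2 and from 7 and 5 in batch 3. By the study's methods each batch was a distinct biological source, and the 3 FANS and 3 INTACT ATAC-seq libraries were technical replicates of 1 source, so p-values measure the spread between libraries and may leave out that between animals.

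Neurexins sit in the membrane of the axon terminal and reach across the synaptic cleft to ligands on the receiving neuron, of which the neuroligins and the leucine-rich repeat protein LRRTM2 are the best known. The receptor phosphatases encoded by Ptprd and Ptprs belong to the LAR family and bind a separate set of postsynaptic partners from the presynaptic side. CNTNAP2 (CASPR2) is a neurexin-like membrane protein that holds potassium channels beside the nodes of Ranvier. On the receiving side, NLGN1 is found at excitatory synapses, NLGN2 at inhibitory synapses and NLGN3 at both. Each neurexin gene has an upstream start site for the long alpha form and at least one internal start site for shorter forms. The annotation used here gives Nrxn2 only 1 start site. A peak at an internal start of Nrxn2 would therefore not be counted as at a start site.

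The genes differ greatly in size. In the RefSeq annotation of mm10, Ptprd spanned 2271 kb (chr4:75941237-78211742), Cntnap2 2241 kb (chr6:45060061-47301388), Nrxn3 1540 kb (chr12:88794504-90334935) and Nlgn1 910.1 kb (chr3:25421808-26331909). Nrxn2 spanned 114.5 kb (chr19:6418756-6533217), Ptprs 64.1 kb (chr17:56412426-56476480), Nlgn3 22.2 kb (chrX:101299179-101321350) and Nlgn2 14.7 kb (chr11:69823123-69837784). Lrrtm2 spanned 6.02 kb inside an intron of Ctnna1 on the opposite strand, with 0 exon bases in common. Exons made up from 0.319% of the body in Cntnap2 to 94.2% in Lrrtm2, so almost all of the 4 longest genes is intron.

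RefSeq windows of 300 bases, from 250 before to 50 after a start site, were given for 10 start sites of 5 of the genes (Nrxn3, Nlgn1, Nlgn2, Cntnap2 and Ptprs). The 4 printed here are those whose chromatin is contrasted below: the Nrxn3 start sites without a peak and with the tallest peak, the GC-rich Nlgn2 start site, and the Ptprs start site whose peak was lower in every INTACT library. Capitals mark GC boxes (GGGCGG), E boxes (CACGTG) and the cAMP response element (TGACGTCA), searched on both strands in mm10.
Nrxn3 start site 1, chr12:88794254-88794553, plus strand: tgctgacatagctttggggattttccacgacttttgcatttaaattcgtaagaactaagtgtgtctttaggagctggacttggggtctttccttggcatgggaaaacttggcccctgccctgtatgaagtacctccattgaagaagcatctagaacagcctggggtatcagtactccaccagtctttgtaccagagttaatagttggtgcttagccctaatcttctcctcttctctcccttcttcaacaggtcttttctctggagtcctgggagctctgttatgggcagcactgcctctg
Nrxn3 start site 3, chr12:89812233-89812532, plus strand: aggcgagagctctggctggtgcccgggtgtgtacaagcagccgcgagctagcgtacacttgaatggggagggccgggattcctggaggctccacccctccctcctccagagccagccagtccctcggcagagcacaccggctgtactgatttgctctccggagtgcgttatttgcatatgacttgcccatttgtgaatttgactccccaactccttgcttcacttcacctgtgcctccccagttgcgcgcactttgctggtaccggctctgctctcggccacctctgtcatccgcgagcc
Nlgn2 start site 1, chr11:69837735-69838034, minus strand: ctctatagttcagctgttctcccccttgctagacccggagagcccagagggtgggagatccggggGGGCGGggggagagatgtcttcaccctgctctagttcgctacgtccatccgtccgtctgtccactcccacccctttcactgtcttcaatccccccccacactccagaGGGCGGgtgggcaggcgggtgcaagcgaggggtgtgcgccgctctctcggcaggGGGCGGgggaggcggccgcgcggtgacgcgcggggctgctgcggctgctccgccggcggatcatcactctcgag
Ptprs start site 1, chr17:56476431-56476730, minus strand: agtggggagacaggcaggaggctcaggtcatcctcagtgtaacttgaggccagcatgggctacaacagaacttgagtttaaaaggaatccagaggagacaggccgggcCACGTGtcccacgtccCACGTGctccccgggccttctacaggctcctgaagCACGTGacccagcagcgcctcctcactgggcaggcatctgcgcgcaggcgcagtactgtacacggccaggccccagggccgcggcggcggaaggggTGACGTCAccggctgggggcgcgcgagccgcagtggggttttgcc

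The window of Nrxn3 start site 1 held 2 CpG dinucleotides and 47.3% G or C, and that of start site 3 held 16 and 60.7%, against medians of 7 and 52.7% over all 32851 windows. Neither held any of the motifs. The Nlgn2 window was the richest of the 10, with 26 CpG dinucleotides, 68.7% G or C and 3 GC boxes, a motif present in 35.7% of all windows. The first Ptprs window held 3 E boxes, which were present in 7.15% of all windows, and 1 cAMP response element, which was present in 1.79%. None of the 10 windows held TATAAA (13.6% of all windows) or the NRF1 core GCGCATGC (2.71%). These are matches of letters and not measured binding.

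The RNA levels of the 9 genes kept nearly the same order in each batch and technique, when the normalised read count was divided by the kb of annotated exon. Ptprd was first in all of them, with 1253 ± 39.4 normalised counts per kb in the FANS libraries of batch 1 (SD, n = 4), above 99.4% of the genes tested. Ptprs followed with 758 ± 21.2 and Nrxn3 with 462 ± 31.5 per kb. Lrrtm2 was the fourth with 268 ± 18.9 per kb. None of these 4 overlapped the gene next to it in the order.

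Nrxn2, the 3 neuroligins and Cntnap2 formed a lower group of 108 to 133 per kb in the same libraries, in which the ranges of neighbours overlapped. Ptprd, Ptprs, Nrxn3 and Lrrtm2 led in this order in 5 of the 6 sets of libraries. The exception was INTACT in batch 1, where Lrrtm2 (335 ± 7.77 per kb, n = 4) stood beside Nrxn3 (317 ± 6.60), with overlapping ranges. This exception rests on the length used, since per kb of the longest transcript Nrxn3 had 378 and Lrrtm2 335 in those libraries, without overlap. Levels of different batches were normalised separately and are not compared here.

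**Figure D1:**
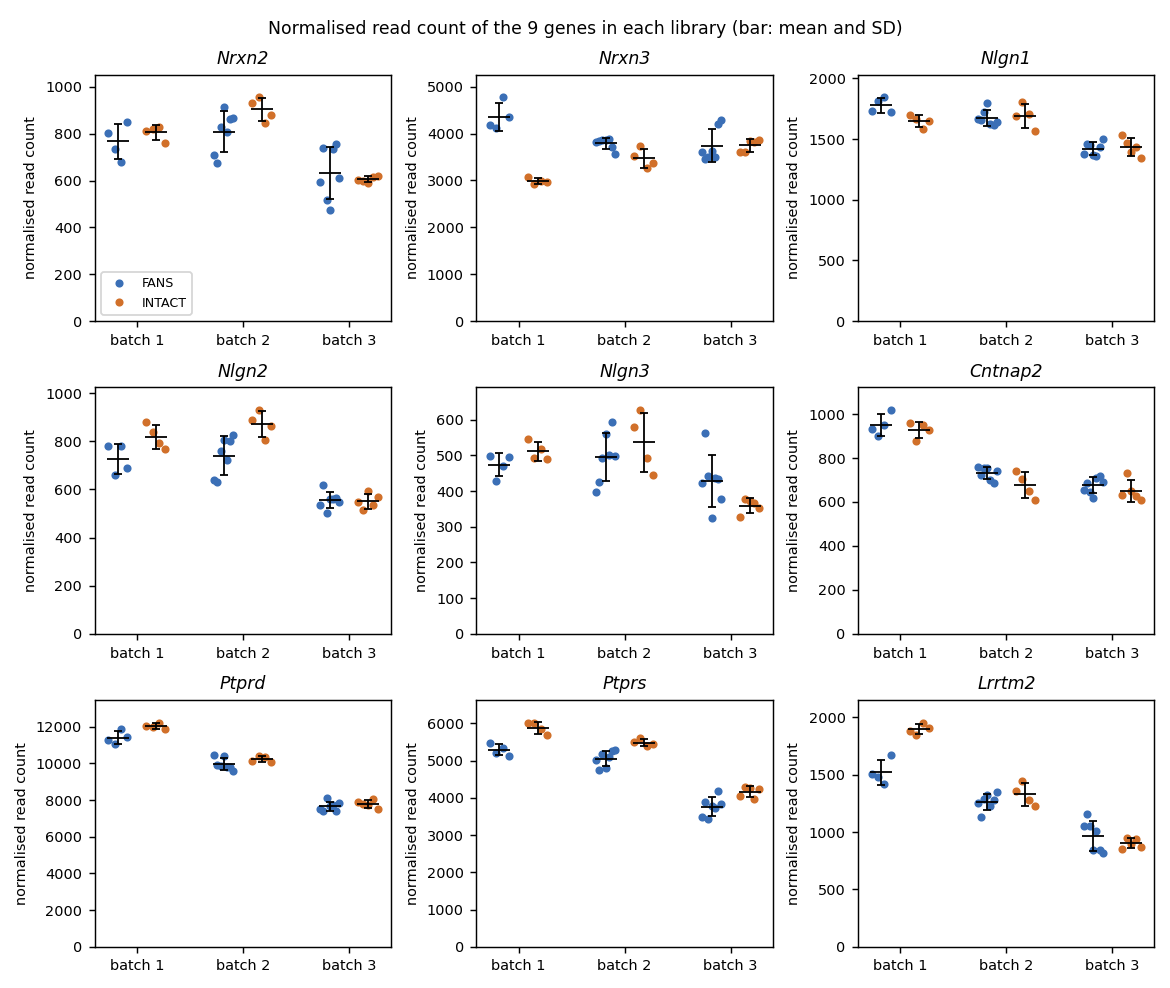
Normalised read count (vertical axis, from 0) of each of the 9 genes in every RNA-seq library, by batch (horizontal axis) and technique (colour), with the mean and SD as black bars. In batch 1 the 4 INTACT libraries of Nrxn3 lie at 2935 to 3082, below all 4 FANS libraries at 4119.8 to 4782, and those of Lrrtm2 and Ptprs lie above all FANS libraries.

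Between the techniques, 4 of the 9 genes changed in batch 1 and none passed the test in batches 2 and 3. In batch 1, Nrxn3 was lower in INTACT, and Lrrtm2, Ptprs and Nlgn2 were higher. The threshold was an adjusted p of 0.05 (limma, Benjamini-Hochberg over all genes tested), and 17.5% of all genes were lower and 18.6% higher in INTACT in batch 1. The count of 1 lower and 3 higher of 9 stands beside those shares, and none of the 4 reached a 1.5-fold change.

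Nrxn3 gave the largest difference. Its normalised read counts in batch 1 were 4119.8, 4185, 4357 and 4782 in the FANS libraries and 2935, 2972, 2993 and 3082 in the INTACT libraries. Every INTACT library was below every FANS library, as for 16.5% of the genes tested. Its level fell by 0.54 on the log2 scale (SE 0.05), to 0.688 of the FANS level, with an adjusted p of 1.898e-09 in limma.

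In batch 2, Nrxn3 had 3561, 3851 and 3880.0 as the lowest, median and highest count of the 7 FANS libraries and 3260.0, 3381, 3512 and 3739.9 in the INTACT libraries. The ranges overlapped, and the difference of -0.13 (SE 0.05) had an adjusted p of 0.187 in limma. In batch 3 the FANS libraries had 3457, 3605 and 4285 as the lowest, median and highest count and the INTACT libraries lay between 3599.8 and 3863, inside the FANS range, with a difference of 0.01 (SE 0.06, adjusted p = 0.974 in limma). The technique difference of batch 1 was itself lower than that of batch 2 by a log2 difference of -0.41 (SE 0.08, adjusted p = 0.000564 in limma's interaction term) and than that of batch 3 by -0.55 (SE 0.08, adjusted p = 8.414e-07). By the study's account RNA integrity was higher in this batch than in the others, so batch and RNA integrity cannot be told apart. The interaction passed for 6.3% of all genes against batch 2 and for 23.3% against batch 3.

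Nrxn2, the other neurexin, showed no such difference in batch 1. Its counts were 680.0, 736, 803 and 851 in FANS and 761, 813, 821 and 831 in INTACT, all inside the FANS range (log2 difference 0.08, SE 0.06, adjusted p = 0.377 in limma). In batches 2 and 3 its differences were 0.17 and -0.04, with adjusted p of 0.249 and 0.888. On the batch 2 libraries whose replicate number occurs in both techniques the difference was 0.33 and passed (adjusted p = 0.0391 in limma). This subset was chosen after seeing the data, and the numbers do not pair the libraries. It holds the lowest FANS counts of the batch, 711.4 and 673.5.

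Of the 4 postsynaptic ligands among the 9 genes, Lrrtm2 had the largest difference in batch 1. Its counts were 1421, 1480.0, 1510.0 and 1672 in FANS and 1849, 1886, 1904 and 1955 in INTACT. Every INTACT library exceeded every FANS library, which held for 17.1% of the genes tested, and the log2 difference was 0.32 (SE 0.05, adjusted p = 1.611e-05 in limma). In batch 2 the difference was 0.07 (SE 0.06, adjusted p = 0.590) and in batch 3 it was -0.09 (SE 0.07, adjusted p = 0.619), with overlapping ranges in both. On the batch 3 libraries of shared replicate numbers, a subset chosen after seeing the data, it was -0.18 (adjusted p = 0.1204 in limma). Ctnna1, whose unspliced RNA crosses the Lrrtm2 locus, had 255 ± 27.2 counts in FANS and 242 ± 26.2 in INTACT in batch 1 (SD, n = 4 each). These counts do not separate out intronic RNA over Lrrtm2, so the part of such RNA in the Lrrtm2 counts was not tested. The Lrrtm2 difference of batch 1 exceeded that of batch 3 by 0.42 (SE 0.10, adjusted p = 0.00161 in the interaction term), whereas the term against batch 2 did not pass (0.25, adjusted p = 0.134).

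The neuroligins had smaller differences. Nlgn2 had 658, 688, 779 and 779.5 counts in the FANS libraries and 767, 792, 838 and 881 in the INTACT libraries of batch 1, with overlapping ranges. Its log2 difference of 0.18 (SE 0.06) had an adjusted p of 0.0325 in limma. The call was lost without any filter on low values (adjusted p = 0.0502) and without FANS replicate 2 (0.133), FANS replicate 4 (0.0628), INTACT replicate 1 (0.127) or INTACT replicate 2 (0.0896). In batch 2 its difference was 0.24 (SE 0.07, adjusted p = 0.0862). On the libraries of shared replicate numbers, a subset chosen after seeing the data, it was 0.41 and passed (adjusted p = 0.0126). In batch 3 it was -0.01 (SE 0.06, adjusted p = 0.954).

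Nlgn1 had 1727, 1729, 1818 and 1848 counts in FANS and 1586, 1649, 1667 and 1703 in INTACT in batch 1. The ranges did not overlap, but the difference of -0.11 (SE 0.05) missed the threshold at an adjusted p of 0.0688 in limma. It passed without FANS replicate 4 (adjusted p = 0.0324) and with scaling to the 75th percentile (0.0461). In batches 2 and 3 the difference was 0.01 in both. Nlgn3, which lies on the X chromosome, had differences of 0.11 in batches 1 and 2 and of -0.24 in batch 3. In batch 3 its 5 INTACT libraries lay at 327, 353, 367, 371 and 377 and its 7 FANS libraries from 325 to 561 with a median of 433 (adjusted p = 0.185 in limma). Without FANS replicate 4 this difference was -0.30 and passed (adjusted p = 0.0264).

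Of the presynaptic phosphatases, Ptprs was higher in INTACT in batch 1, and its differences in batches 2 and 3 had the same sign without passing the test. Its counts in batch 1 were 5132, 5205, 5349 and 5462 in FANS and 5676, 5851, 6001 and 6019 in INTACT, without overlap (log2 difference 0.16, SE 0.04, adjusted p = 0.00327 in limma). In batch 2 the FANS libraries reached from 4745 to 5289 with a median of 5096, and the INTACT libraries had 5391, 5435, 5506 and 5613. Again no INTACT library overlapped FANS, as for 2.99% of the genes in either direction, at a difference of 0.12 (SE 0.05, adjusted p = 0.215). In batch 3 the difference was 0.15 (SE 0.05, adjusted p = 0.149) with ranges that overlapped. On the libraries of shared replicate numbers, a subset chosen after seeing the data, it was 0.18 and passed (adjusted p = 0.0213). No interaction passed (0.04 against batch 2 and 0.01 against batch 3).

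Ptprd, the most abundant of the 9, varied little. Its counts in batch 1 were 11049, 11293, 11422 and 11902 in FANS and 11881, 12012, 12053 and 12226 in INTACT (log2 difference 0.08, SE 0.04, adjusted p = 0.115 in limma). Without FANS replicate 3 it passed (0.10, adjusted p = 0.0297). Its differences were 0.04 and 0.03 in batches 2 and 3. Cntnap2 had 901, 932, 948 and 1019 counts in FANS and 878, 926, 950.4 and 959 in INTACT in batch 1, and its differences were -0.03, -0.12 and -0.06 in batches 1, 2 and 3 (adjusted p = 0.672, 0.354 and 0.727).

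In batch 2, 0.309% of all genes tested were lower and 0.834% higher in INTACT, and 0 of the 9 passed limma, edgeR or DESeq2. In batch 3 the shares were 0.519% and 1.18%, with 1.59% of genes not overlapping in either direction, and again 0 of the 9 passed the same 3 tools. An unadjusted p under 0.05 was found for 5 of the 9 in batch 1, beside 44.5% of all genes tested, for 4 of the 9 in batch 2, beside 15.2%, and for 2 of the 9 in batch 3, beside 13.7%.

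**Figure D2:**
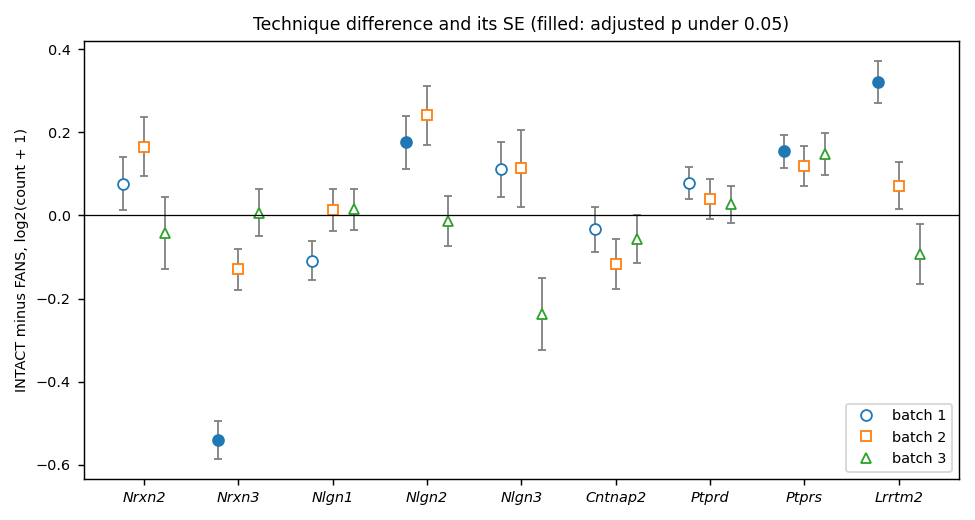
Difference between techniques (vertical axis, INTACT minus FANS on the log2(count + 1) scale) with its standard error for the 9 genes (horizontal axis) in batches 1, 2 and 3 (symbols), filled where the adjusted p in limma was under 0.05. The filled points are Nrxn3 at -0.54, Nlgn2 at 0.18, Ptprs at 0.16 and Lrrtm2 at 0.32, all in batch 1.

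In batch 1 the technique difference of all genes ran with gene length. Genes of up to 10 kb had a median log2 difference of 0.19 over 4280 genes, those of 300 to 1000 kb -0.20 over 450 genes, and those above 1000 kb -0.23 over 50 genes, of which 54% were lower and 2% higher by the test. Lrrtm2, the shortest member, was above FANS, and Nrxn3 was below. The 3 members above 1000 kb nevertheless spread from -0.54 in Nrxn3 to -0.03 in Cntnap2 and 0.08 in Ptprd, the last above the 90th percentile of such genes (0.07). In batch 2 the median of genes above 1000 kb was -0.08, and in batch 3 it was -0.04. The part of length in the members' differences was not tested.

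**Figure D3:**
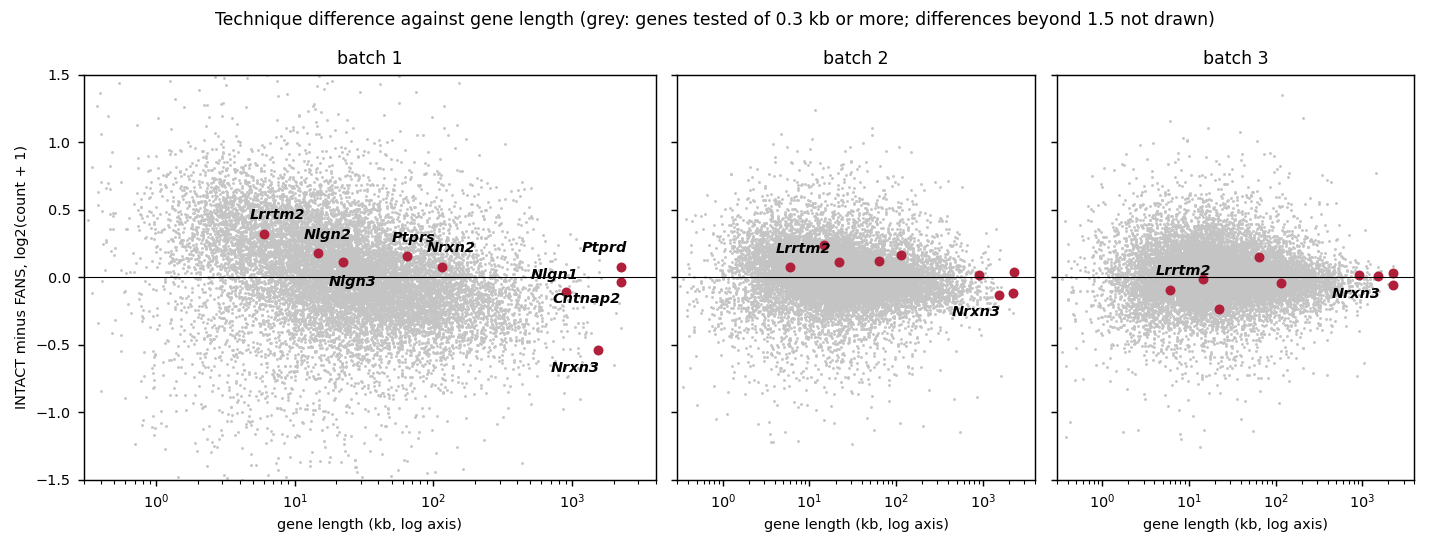
Difference between techniques (vertical axis, INTACT minus FANS, log2) against gene length in kb (horizontal log axis) for the genes tested in each batch (grey) and the 9 members (red, named in full in batch 1). In batch 1 the grey cloud declines to a median of -0.23 above 1000 kb, where Nrxn3 lies at -0.54 and Ptprd at 0.08.

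Other values moved with technique in batch 1. Its INTACT libraries had more reads on genes (8621143 to 11028713) than its FANS libraries (4853224 to 6066759) and fewer reads outside gene features (73.6 to 75.3% against 81.9 to 84.3%), and over all 31 libraries reads on genes ran from 4205665 to 11028713. The normalised counts of 10 excitatory neuron markers summed to 11256 to 11457 in FANS and 10696 to 11236 in INTACT. The sums of 10 oligodendrocyte markers were 6424 to 8036 against 10327 to 10905, and 8 of the 10 rose, as did 8 of 10 astrocyte markers and 5 of 8 tested inhibitory neuron markers. Of 10 excitatory markers 3 were lower and 3 higher, 2 of 5 markers of oligodendrocyte precursors were higher, 1 of 5 tested microglial markers was lower, and of 3 tested vascular markers 1 was lower and 2 higher. In batch 2 the oligodendrocyte sums were 7140.4 to 13793 and 13699 to 16444, with 4 of 10 higher, beside 2 of 10 astrocyte markers (Slc1a3, 0.93, and Apoe, 0.57) and 1 of 4 tested precursor markers (Olig1, 0.74), and in batch 3 they were 1773 to 2387 and 2171 to 2699, with no marker of any of the 7 lists called. The part of depth, of RNA integrity and of other cell types in the members' differences was not tested. In bulk nuclei, fewer cells of a type and less RNA per cell cannot be told apart.

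The other genes of the same adhesion system were taken from 4 lists. Of 23 intracellular scaffold genes, which hold the adhesion proteins to receptors and to the release machinery, 16 were lower and none higher in INTACT in batch 1, with a median log2 difference of -0.29 against 0.01 over all genes. The most reduced was Magi2, a scaffold that binds neuroligins, at 2528 ± 182 in FANS and 1594 ± 47.7 in INTACT (SD, n = 4 each; -0.66, SE 0.05, adjusted p = 3.206e-10 in limma). Magi2 spans 1478 kb and Dlg2 1358 kb, and all genes above 1000 kb had a median of -0.23 in batch 1. The scaffolds were not compared with genes of like length. In batch 2 the scaffolds Magi2 (-0.22, adjusted p = 0.0242), Dlg2 (-0.20, adjusted p = 0.0360) and Homer1 (-0.20, adjusted p = 0.0443) were lower as well. In batch 3 only Shank1 passed of the scaffolds, and it was higher (0.37, adjusted p = 0.0122 in limma).

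Of 21 tested neurexin and neuroligin partners, 3 were lower and 6 higher in batch 1. Lrrtm4, a relative of Lrrtm2 that also binds neurexins, went from 1117 ± 117 in FANS to 674 ± 63.2 in INTACT (n = 4 each; -0.73, adjusted p = 1.33e-08 in limma), opposite in direction to Lrrtm2. Clstn1 (calsyntenin 1) went from 3080.2 ± 257 to 5004 ± 173 (0.70, adjusted p = 1.208e-10). None of the 21 passed in batches 2 and 3.

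Of 17 tested genes of the LAR-type phosphatase list, 4 were lower and 5 higher in batch 1, with the largest differences in Il1rapl1 (-0.41) and Slitrk4 (0.49), both postsynaptic partners of PTPRD or PTPRS. Ppfia2, a liprin that binds these phosphatases inside the terminal, was lower in batch 2 (-0.20, adjusted p = 0.0391 in limma). Of 12 contactin and contactin-associated genes, 5 were lower and 3 higher in batch 1, led by Cntn5 (-0.42) and Cntn1 (0.46). Il1rapl1 spans 1375 kb and Cntn5 1244 kb, and these lists were not compared with genes of like length either. In batch 2, Cntn2 (0.30, adjusted p = 0.0188), the partner of CNTNAP2, and Cntnap1 (0.26, adjusted p = 0.0218) were higher.

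Across the 31 libraries, with each batch centred on its mean, the gene most like each member was found by Pearson's r over 9611 genes. These were Acot10 for Nrxn3 (r = 0.96), Manea for Lrrtm2 (0.95), Gabbr2 for Nlgn3 (0.92), Grin1 for Ptprs (0.88), Rtn4r for Nrxn2 (0.87), Tmem184b for Nlgn2 (0.76), Nfia for Cntnap2 (0.75), Secisbp2l for Ptprd (0.71) and D630045J12Rik for Nlgn1 (0.69). Among the 36 pairs of members, r ran from -0.71 for Nrxn3 with Lrrtm2 to 0.68 for Nlgn3 with Lrrtm2. The libraries share batch 1's technique difference, so these values describe the libraries and carry no test.

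Open chromatin was read from lists of 123596 to 130088 peaks per library in FANS and 99514 to 123895 in INTACT. Merged over the 6 lists, 588 open regions overlapped the 9 bodies, of which 232 (39.5%) were in all 6 lists, 106 (18.03%) in FANS lists only and 81 (13.8%) in INTACT lists only. Of the 170178 regions of the whole genome the shares were 45.0%, 18.8% and 12.3%. Most (558) touched neither an exon nor the 1 kb around a start site of the gene. The 9 bodies held 317, 315 and 308 peaks per 100000 of the list in FANS and 343, 327 and 311 in INTACT, which overlapped (difference 13.2, two-sided exact permutation p = 0.3). The difference ran from 5.21 to 21.2 on leaving out 1 library. Over all genes tested in batch 1 the same measure was lower in INTACT, at 58243 overlaps per 100000 peaks in FANS and 54964 in INTACT (exact permutation p = 0.1). Not divided by the list total, the 9 bodies held fewer peaks in INTACT, on average 399.7 in FANS and 366 in INTACT (exact permutation p = 0.1). In 3 against 3 libraries no p below 0.1 is possible.

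Per list total, 1 of the 9 genes was higher in every INTACT list (Cntnap2), 2 were lower (Nrxn2 and Nlgn2) and 6 overlapped. Cntnap2 held 66, 56 and 60 peaks in the FANS lists and 94, 74 and 94 in the INTACT lists, although those lists were shorter. Per 100000 peaks, every INTACT list exceeded every FANS list, as in 9.77% of the 13421 genes with a peak in all 6 lists (exact permutation p = 0.1, the smallest possible). Of its 114 merged regions, 40 (35.1%) were in INTACT lists only and 1 in FANS lists only, against 12.3% and 18.8% over the whole genome. The INTACT-only regions were spread over the body (12, 8, 11 and 9 in 4 stretches of equal length), 23 of the 40 were each found in a single list, and their median fold enrichment of 4.04 was below the 8.83 of the 46 regions in all 6 lists.

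A higher count in INTACT was frequent among genes of that size. Of the 50 genes above 1000 kb, 28 (56%) had more peaks per list total in every INTACT list and 12 fewer, and 7 had a ratio at or above that of Cntnap2, itself included. Nrxn3 (103, 104 and 99 peaks in FANS, 86, 81 and 92 in INTACT) and Ptprd (116, 134 and 122 against 108, 83 and 99) overlapped between the techniques per list total. Nlgn1 also overlapped, with 63, 65 and 73 peaks against 71, 60 and 66.

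Nrxn2 showed the reverse of Cntnap2. Its body held 24, 25 and 26 peaks in FANS and 15, 12 and 15 in INTACT, and 11 of its 28 regions were in FANS lists only and none in INTACT lists only. Per list total every INTACT list was below every FANS list, as in 16.8% of the 13421 genes with a peak in all 6 lists and in 30.4% of the 1636 such genes of 100 to 300 kb (exact permutation p = 0.1). Its mean density was 21.8 peaks per 100 kb in FANS, above that of 98.9% of genes of 100 to 300 kb, and 12.2 in INTACT, above that of 90.3%. Its 3 tallest intronic regions, 33.6, 40.9 and 46.3 kb after the start, were lower in every INTACT library, as were 4 of its 11 regions in all 6 lists and 32.8% of such regions of the whole genome. The one at 40.9 kb had fold enrichments of 19.2, 19.5 and 20.2 in FANS and 10.4, 12.9 and 15.0 in INTACT, whereas the start-site peak of Nrxn2 overlapped. Over the alternatives, which include -log10 q as the height, the log2 difference of that start-site peak ran from -1.84 to 0.053. Nlgn2, the other gene with a lower count, held 2, 3 and 2 peaks in FANS and 1, 1 and 1 in INTACT, and 13% of the 4212 genes of 10 to 30 kb with a peak in all 6 lists were lower in every INTACT list.

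**Figure D4:**
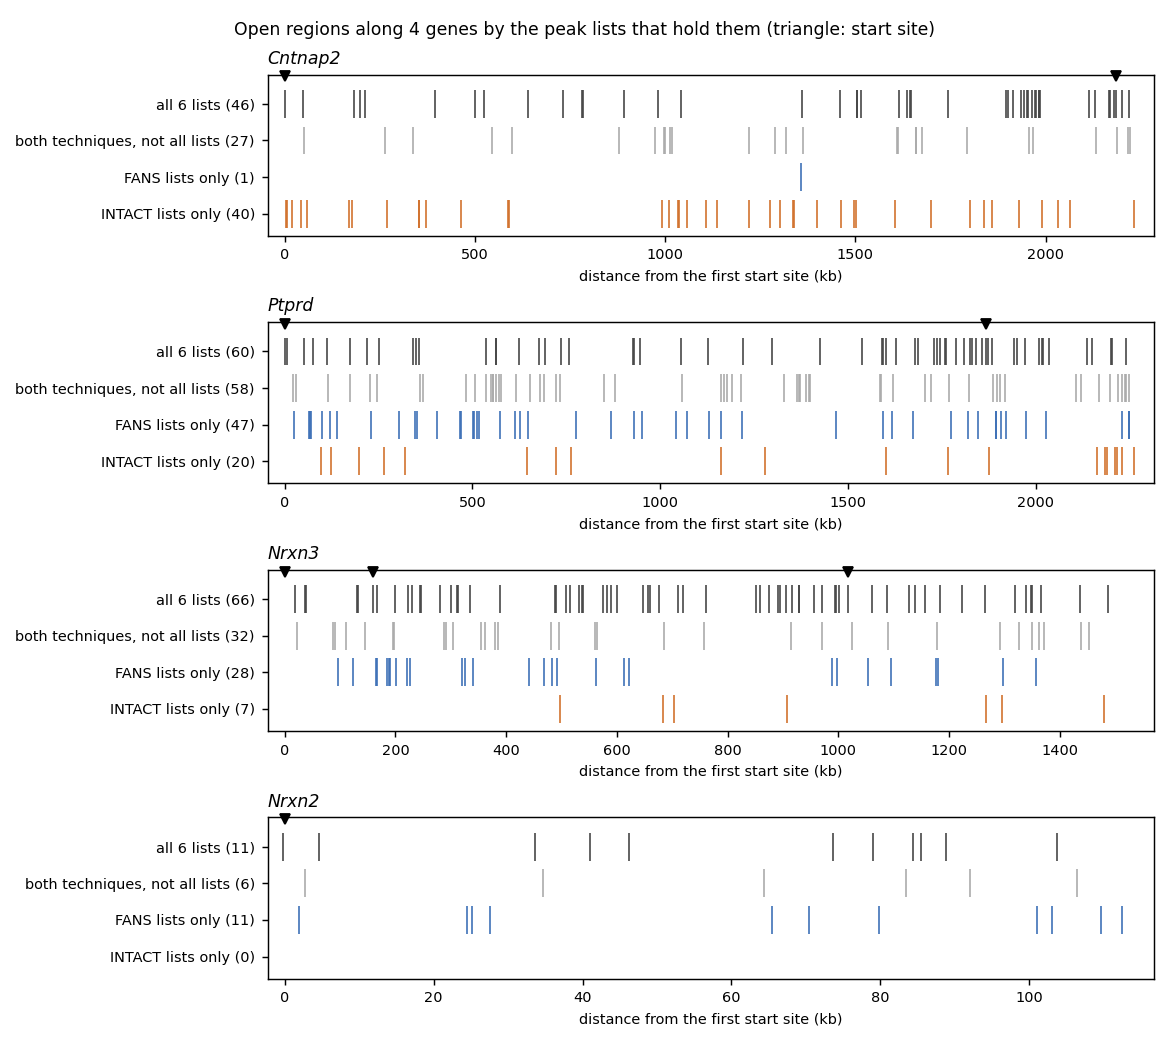
Open regions along Cntnap2, Ptprd, Nrxn3 and Nrxn2 (horizontal axis, kb from the first start site, triangles marking start sites), in rows by the peak lists that held them, with the number of regions in brackets. Cntnap2 has 40 regions in INTACT lists only and 1 in FANS lists only, and Nrxn2 has 0 and 11.

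The density of peaks varied along the long genes. In Ptprd, the 403 kb after the second start site held on average 7.44 peaks per 100 kb in FANS and 6.70 in INTACT, and the 1867 kb before it 5.09 and 3.78. The tallest regions of Ptprd in all 6 lists lay around that site, at 1787, 1826, 1831 and 2036 kb from the first start site. In Nlgn1 the stretch after its second start site held 8.15 peaks per 100 kb in FANS and 7.97 in INTACT, against 4.68 in both before it. In Cntnap2 the last 57.0 kb held 8.77 in FANS and 9.36 in INTACT, and the 2184 kb before them 2.59 and 3.8. Nrxn3 held fewer peaks per 100 kb after start site 3 (5.17 in FANS and 4.40 in INTACT) than before it (7.47 and 6.32). At its start site 2 the means of the techniques went in opposite directions. FANS held 6.66 after it and 6.92 before, and INTACT 5.74 and 5.04. Before it the INTACT lists held only 7, 7 and 10 peaks, so the INTACT direction rests on few peaks.

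The tallest regions of the 4 longest genes were intronic rather than at a start site. In Cntnap2 a region of 777 bases at 1743 kb (chr6:46802571-46803347) had a fold enrichment of 22.3 ± 1.11 in FANS and 20.5 ± 3.52 in INTACT (SD, n = 3 each). In Nrxn3 a region at 859 kb had 21.4 ± 1.61 and 19.9 ± 2.16, and in Nlgn1 one at 102 kb had 19.96 ± 2.32 and 18.15 ± 2.01. The ranges of these 3 regions overlapped between the techniques. Of the 232 regions of the 9 genes in all 6 lists, 55 were lower in every INTACT library and 8 higher, beside 32.8% and 8.68% of the 76555 such regions of the whole genome. In Ptprd the region at 2036 kb had 20.1 ± 1.12 in FANS and 14.9 ± 0.903 in INTACT, without overlap (21.0, 20.5 and 18.8 against 14.9, 14.1 and 15.9), as for 16 of the 60 regions of Ptprd in all 6 lists and 32.8% of such regions of the whole genome.

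Start sites were open for nearly all of the genes. A peak within 1 kb of a start site was present in all 6 lists for 8 of the 9 genes, beside 83.6% of the genes tested in batch 1. The exception was Nlgn3, whose peaks were low (5.45, 4.76 and 3.90 fold in FANS, 3.83 and 2.93 in INTACT) and which had none in INTACT replicate 1. Its body, the start site included, held 5, 5 and 5 peaks in FANS and 4, 5 and 5 in INTACT, and the tallest lay 15.0 kb into the gene (11.8 ± 0.266 and 10.7 ± 0.611 fold).

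Of the 16 annotated start sites, 13 had a peak in all 6 lists and 2 in none. The latter were the first start site of Nrxn3 and the second of Nlgn2. The 3 annotated start sites of Nrxn3 thus differed. The first had no peak, the second 8.61 ± 0.391 fold in FANS and the third, 1018 kb downstream, 15.2 ± 0.708. Whether transcription starts at the annotated first site was not tested. The lack of a peak there is therefore not a reading of the promoter of the alpha form. The printed windows of start sites 1 and 3 contain 2 and 16 CpG dinucleotides, respectively. The peak at the first Nlgn2 start site is shared with Tmem256, which starts within 1 kb. The summits of this peak lay at -583 to -481 bases from the Nlgn2 start, outside the printed window.

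Peak height at start sites was lower in every INTACT library than in every FANS library for 56.3% of the 12596 genes with a peak in all 6 lists and higher for 0.937%, and the median log2 difference over these genes was -0.23. Of the 8 members, 2 were lower in this way (Nlgn1 and Cntnap2) and none higher. Nlgn1 had 7.80, 8.01 and 8.46 fold in FANS and 7.44, 6.50 and 6.18 in INTACT at its tallest start-site peak (log2 difference -0.27, exact permutation p = 0.1). Cntnap2 had 13.6, 12.3 and 12.6 against 11.9, 12.2 and 12.1 (-0.09, exact permutation p = 0.1). With -log10 q as the height Cntnap2 was at 0.016, whereas Nlgn1 stayed below 0 in every alternative.

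The tallest start-site peaks of Ptprs (15.4 ± 0.824 in FANS, 15.2 ± 1.70 in INTACT), Nrxn3 (15.2 ± 0.708 and 14.9 ± 1.01) and Nlgn2 (12.1 ± 0.813 and 12.1 ± 0.0927) overlapped between the techniques. Their log2 differences of -0.02, -0.03 and -0.01 were above those of 93.2%, 92.1% and 94.0% of all such genes. With -log10 q as the height the differences were -1.11, -0.40 and -1.77. The first Ptprs start site, whose window with E boxes is printed above, was different, with 12.2, 11.9 and 12.9 fold in FANS and 9.03, 10.6 and 10.2 in INTACT (log2 difference -0.31, exact permutation p = 0.1). Ptprs RNA was higher in INTACT in batch 1, as given above, and the 2 assays came from separate libraries.

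**Figure D5:**
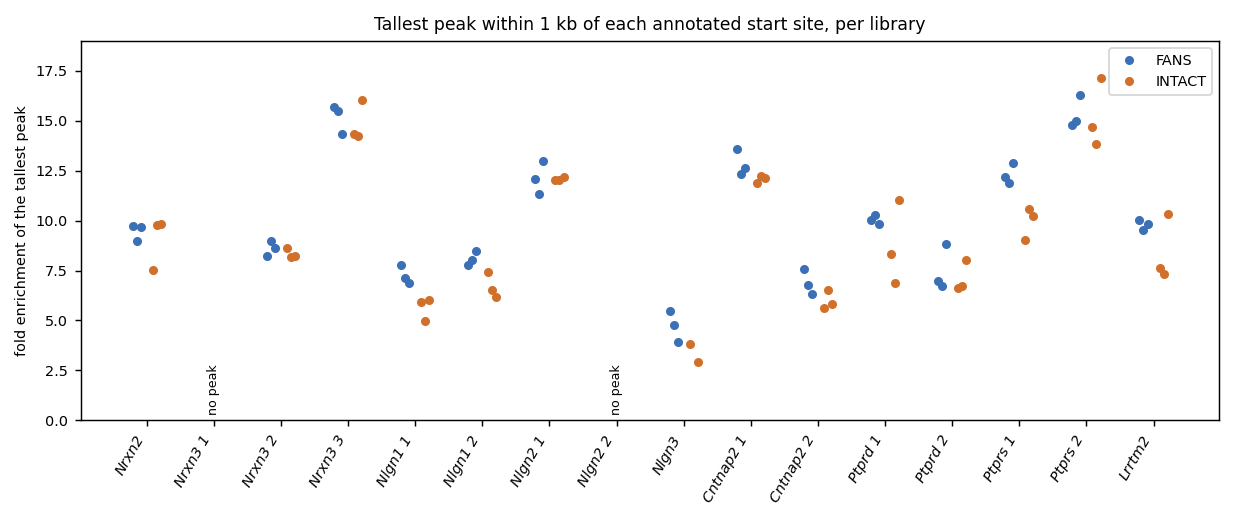
Fold enrichment of the tallest peak within 1 kb (vertical axis, from 0) at each of the 16 annotated start sites of the 9 genes (horizontal axis, numbered in the direction of transcription) in the 3 FANS and 3 INTACT libraries (points). The first Nrxn3 and second Nlgn2 start sites have no peak, and the 3 INTACT points of the first Ptprs start site, at 9.03 to 10.6, lie below the 3 FANS points at 11.9 to 12.9.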

How the data were processed

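Nuclear RNA-seq (31 libraries in 3 batches, 18 FANS and 13 INTACT) and ATAC-seq (3 libraries per technique) of neocortical sfGFP+ nuclei were analysed from the processed files. The labels list 33 RNA samples, of which FANS replicate 3 and INTACT replicate 5 of batch 2 were not analysed here. By the methods and the submitters' processing notes (FastQC, STAR, HTSeq, DESeq and MACS2, mm10), the authors removed duplicates by molecular identifiers, counted reads per gene and divided them by 1 size factor per library. The deposited RNA values are therefore a signal per gene within a batch, not scaled by length, and 100% of values up to 1000 were within 0.1 of a whole read. The strand setting of the counting is not given in the sources used here. The 5 summary rows that name no gene held 74.8 to 88% of all reads and were left out. For ATAC-seq the authors called peaks in each library, and the deposited lists give a score, the fold enrichment over local background and the -log10 of p- and q-values of each peak. Read depth of the ATAC-seq is unknown, and a fold enrichment is relative to its own library.

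FANS and INTACT were compared by batch in R 4.3.3 with limma 3.58.1 and its trended eBayes. A pseudocount of 1 was added to the normalized counts before log2, which understates the changes of low genes, genes with a mean under 5 were left out, and p-values were adjusted by Benjamini-Hochberg over all genes kept. The difference between batches was tested with an interaction term over all 31 libraries. The test was checked on simulated data. edgeR 4.0.16 and DESeq2 1.42.0 on the recovered reads were alternatives. Of the 24421 genes, 23165 were matched to RefSeq gene models by symbol and 1068 by an older symbol. A peak counted over a body where at least 1 base overlapped, and at a start site within 1000 bases. Peak values were compared by two-sided exact permutation tests. Replicate numbers recur in both techniques, but in no batch did every pair of the same number correlate above 0.1 (2 of 5 pairs did in batch 3, and none in batches 1 and 2), so they were not paired.

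The members, the gene lists and the tests were chosen with earlier results of these data known. Beside the members, the genes named are those with the largest difference in each direction among the calls of each adhesion list in batch 1, those called in batches 2 and 3, and the gene most correlated with each member. Of the genes inside a member, Gm42303 was not in the table and Mir6977 was below the filter, so neither was tested, and no gene shared exon bases with a member. Marker lists are given by sums and counts.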

Additional observations from a re-analysis of the deposited data

Results flagged for a closer look

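The technique difference of Nrxn3 differed between batches by limma's interaction term. It was lower in batch 1 than in batch 2 by a log2 difference of -0.41 (adjusted p = 0.000564) and lower than in batch 3 by -0.55 (adjusted p = 8.414e-07). All 4 INTACT libraries were below all FANS libraries in batch 1. The difference of Lrrtm2 was higher in batch 1 than in batch 3 by 0.42 (adjusted p = 0.00161), and all 4 INTACT libraries were above all FANS libraries in batch 1. Reads on genes, reads outside features and markers of other cell types moved with technique in batch 1 as well, as described above, and their part in these differences was not tested. Over 54 sets of libraries of 1 gene, batch and technique, 0 held a library far outside the others by Dixon's test, a test by which chance picks out about 1 set in 20.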

How the results depend on the processing

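In batch 1, 153 of 162 values of single genes kept their direction and their side of the threshold, and 4 of the 9 genes passed in most alternatives (3 to 5 of the 9 over all). The calls of Nrxn3, Lrrtm2 and Ptprs held in every alternative tried in that batch, which covered TMM and 75th percentile scaling, pseudocounts, filters, edgeR, DESeq2, the block and leaving out a library. In batch 2 the count of 0 held except on the libraries of the shared replicate numbers, where 2 passed (Nrxn2 and Nlgn2). The replicate numbers did not pair the libraries. In no batch did every same-numbered pair correlate above 0.1, and in batch 3 the correlations ran from -0.01 to 0.27. With the replicate block 4 passed in batch 1, 0 in batch 2 and 3 in batch 3 (Ptprs, 0.18, adjusted p = 0.00173; Nlgn3, -0.26, 0.0153; Lrrtm2, -0.18, 0.0366), and on the same libraries of batch 3 without the block 1 passed (Ptprs). Leaving out 1 library in batch 3 gave 0 or 1. With only batches 1 and 2 in the fit, 2 genes passed the interaction in place of 1, and with only batches 1 and 3, 3 passed in place of 2. The alternatives on shared libraries were chosen after seeing the data.

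Differences near 0 changed sign. With the block, and on its libraries without it, Nlgn1 in batch 2 was at -0.0014 and Nrxn2 in batch 3 at 0.0078. On leaving out a library, the log2 difference ran from -0.058 to 0.00087 for Cntnap2 in batch 1 and from -0.018 to 0.051 for Nlgn1 in batch 2. In batch 3 it ran from -0.010 to 0.038 for Nlgn1, from -0.011 to 0.040 for Nrxn3, from -0.039 to 0.013 for Nlgn2 and from -0.11 to 0.0041 for Nrxn2. Start-site peak heights ran from -0.054 to 0.043 for Nlgn2, from -0.11 to 0.048 for Ptprs, from -0.14 to 0.053 for Nrxn2 and from -0.085 to 0.00046 for Nrxn3. With -log10 q as the height, Cntnap2 was at 0.016 and the median of the 8 genes moved from -0.08 to -1.03. The peaks over the 9 bodies were fewer in INTACT by -33.7 when not divided by the list total, against 13.2 per 100000 peaks, since INTACT lists are shorter, and the block gave 13.2 (exact sign-flip permutation p = 0.25, the smallest possible). The causes of the other changes were not tested.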
